A study of Bos taurus with 36 samples.

Results

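Gene expression in the fetal heart was compared with that in the libraries labelled gonads, over the whole count table and in both directions. The comparison took all libraries whose labels name the heart (9) and all whose labels name the gonads (9), which are 18 of the 36 libraries of the series; the other libraries came from fetal liver (8) and maternal blood (10). The fetuses were male cattle (Bos taurus) collected on Day 42 of gestation, and they are numbered here by weight from fetus 1 (1.253 g) to fetus 10 (1.69 g). Each came from a Day 7 embryo placed either into a uterus on Day 7 of the cycle (ET_D7, synchronous, fetuses 1 to 5) or into one on Day 9 (ET_D9, asynchronous, fetuses 6 to 10). The heart libraries hold 5 ET_D7 and 4 ET_D9 fetuses and lack fetus 7, and the libraries labelled gonads hold 4 and 5 and lack fetus 2, so 8 fetuses gave both. No untransferred or naturally conceived fetus was included, and every library is 1 dissected organ of 1 animal, with no sorting of cells.

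The heart is the first organ to work in the embryo, and its muscle cells are filled with sarcomeres, in which myosin thick filaments pull on actin thin filaments when calcium is released from internal stores. The fetal testis forms beside the mesonephros, a temporary kidney, and is marked by Sertoli cells, which make anti-Müllerian hormone, by steroid-producing Leydig cells and by germ cells. Kidneys form from a nephric duct, which sends out the ureteric bud, and from a mesenchyme of nephron progenitors that turns into epithelial vesicles and then into podocytes and tubules. HOX genes lie in clusters in which low-numbered paralogues are used towards the head and high-numbered ones towards the tail.

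The libraries held 20930367 to 35857434 counts in the heart and 22762065 to 39649051 in the labelled gonads. The mitochondrial genome accounted for 17.1% to 57.3% of a heart library and 3.31% to 7.23% of a labelled-gonad library, so levels depend on how library composition is scaled. Levels are given as CPM, counts per 1000000 of a library size adjusted by TMM, which sets the bulk of genes level between libraries. Among genes with a mean of at least 10 CPM, the labelled-gonad library of fetus 1 lay more than 4-fold below the next lowest library of its group for 505 of 9898 genes, against 0 genes in each of the other 8, and each heart library did so for 0 to 2 of 9684 genes. Results that rest on that library are therefore also given without it. In bulk tissue, fewer cells of a type and less RNA per cell cannot be told apart.

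At an adjusted p-value under 0.05, 6256 of 24562 genes were higher in the heart (25.5%) and 7270 were higher in the labelled gonads (29.6%), by edgeR's quasi-likelihood test. At least a 2-fold difference was met by 3915 of the genes higher in the heart (15.9% of all tested) and by 4288 of those higher in the labelled gonads (17.5%). Every heart library lay above every labelled-gonad library for 2750 genes (11.2%), and the reverse held for 3128 genes (12.7%). The median log2 fold change of heart over labelled gonads was -0.17 over all genes tested. Counts of called members of a gene list below are to be set beside 25.5% and 29.6%. With fetus as a replicate block, over the 16 libraries of the 8 fetuses that gave both organs, 5555 genes were higher in the heart and 6530 in the labelled gonads. The split between the directions rested on the scaling: the heart took 46.3% of the calls with TMM and 14.7% when libraries were scaled by their totals alone, which moved the median log2 fold change of all genes to -1.10. Of the genes named below, STAR, WNT11, OSR1, HK2, CYP17A1 and DMRT1 changed sign with that scaling, as did GJA1, which then passed as higher in the labelled gonads together with CKB, EEF1A1, AFP and ISL1, and the heart excess of AMH, ATP2A2, CHGA, CITED1, CNTNAP5, COL4A1, COL4A2, COX6A1, HK1, INSL3, JAG1, LDHB and PLA2R1 kept its sign and no longer passed. A heart excess of less than about 1 on the log2 scale is therefore a difference relative to the bulk of genes, not to the total count. Some larger excesses also failed to pass with library totals, among them COX6A1 (1.33), HK1 (1.49) and INSL3 (2.49).

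**Figure D1:**
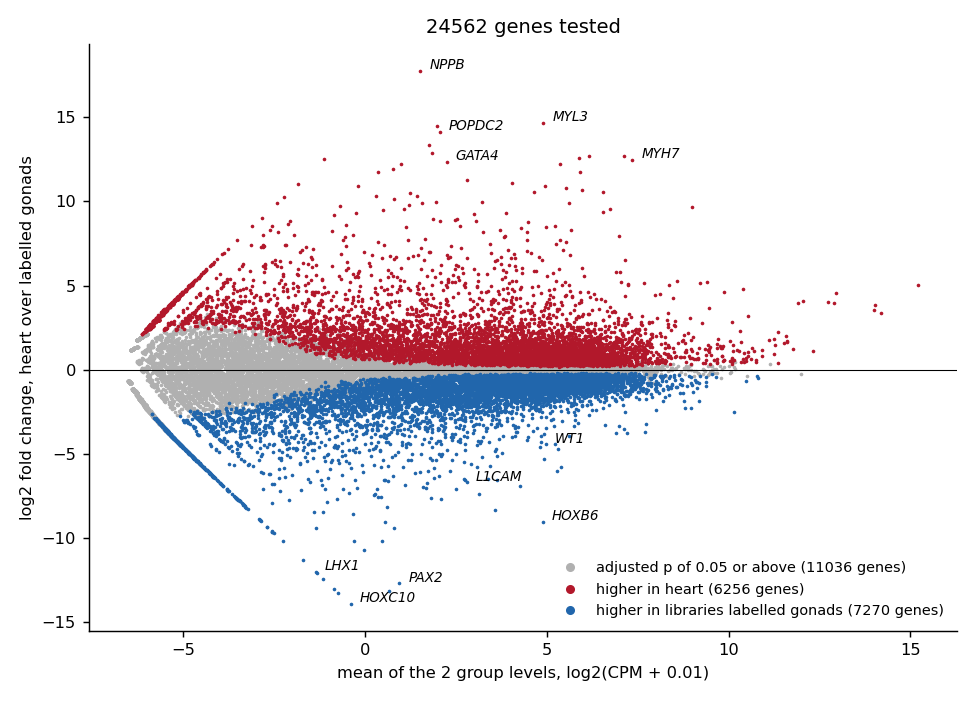
Each point is 1 of 24562 genes, with the mean of both group levels on the horizontal axis (log2 of CPM + 0.01) and the log2 fold change of heart over labelled gonads on the vertical axis. Red points (6256) were higher in the heart, blue points (7270) higher in the labelled gonads, and grey points (11036) passed in neither direction; the heart extremes are sarcomere genes, NPPB and GATA4, and the opposite extremes are HOX genes, PAX2 and LHX1.

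The 4 marker genes chosen for this comparison separated the groups in every library. MYL3, the ventricular and slow-muscle essential myosin light chain, had a lowest, median and highest level of 2873, 4734 and 5991 CPM in the 9 heart libraries and of 0, 0.0752 and 0.739 CPM in the 9 labelled-gonad libraries, a log2 fold change of 14.68 (SE 0.60, adjusted p = 6.93e-15, edgeR). POPDC2, a cAMP-binding membrane protein of muscle, had 382, 528 and 598 CPM in the heart and was at 0 in 7 of the 9 labelled-gonad libraries, with 0.173 CPM in the highest of them, a log2 fold change of 14.16 (SE 0.42, adjusted p = 3.20e-17, edgeR). L1CAM, a cell adhesion protein of neurons and of the ureteric bud, had 0.38, 0.63 and 1.12 CPM in the heart and 58.0, 70.3 and 98.7 CPM in the labelled gonads, a log2 fold change of -6.69 (SE 0.18, adjusted p = 7.53e-18, edgeR). WT1, a transcription factor of the urogenital ridge, podocytes and the epicardium, had 3.16, 7.43 and 11.1 CPM in the heart and 101, 144 and 189 CPM in the labelled gonads, a log2 fold change of -4.43 (SE 0.24, adjusted p = 1.17e-12, edgeR). For none of these 4 genes did the groups overlap. Over all genes, every heart library was higher for 11.2% and every labelled-gonad library for 12.7%. The 4 genes were chosen as markers of the groups, so their separation adds no evidence about the libraries.

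**Figure D2:**
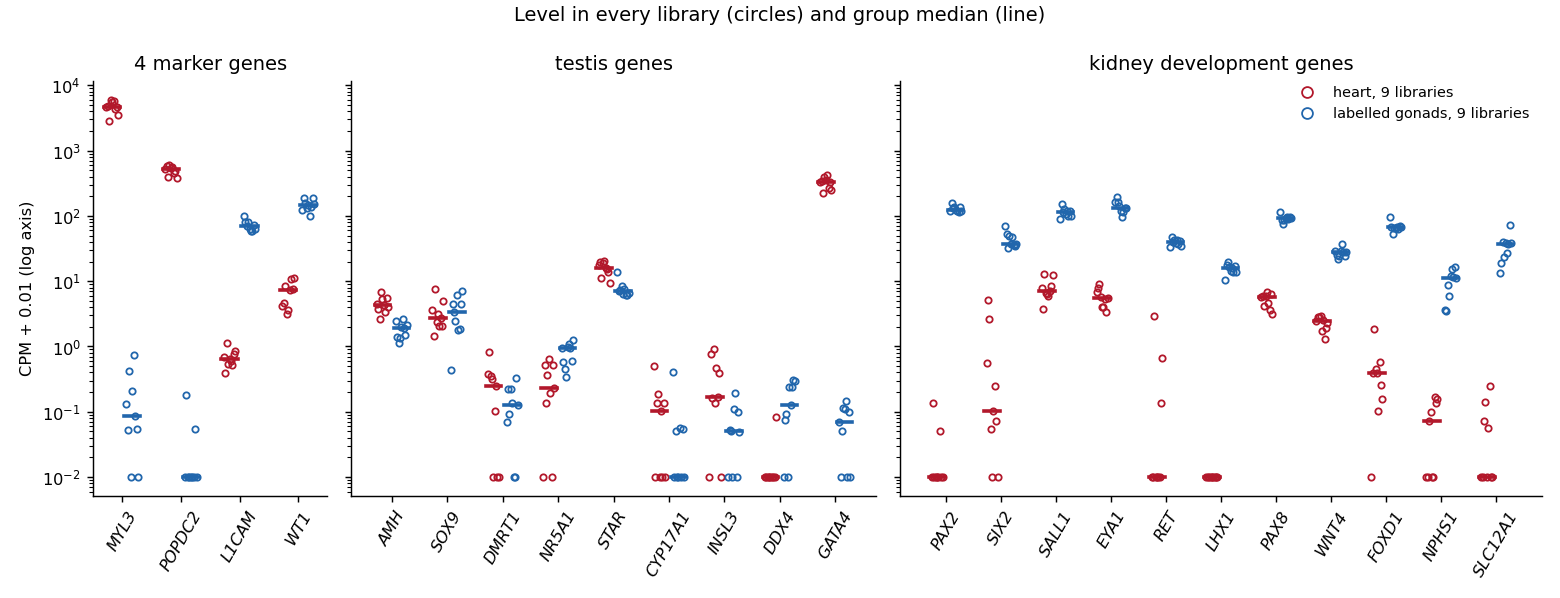
Level of each gene (CPM + 0.01, log axis) in every heart library (red circles) and every labelled-gonad library (blue circles), with group medians as lines, for the 4 markers, 9 testis genes and 11 kidney development genes. The 9 testis genes drawn are a selection and lay low in the labelled gonads, with AMH at 1.12 to 2.59 CPM and GATA4 at no more than 0.139 CPM. Of 28 testis genes tested, 4 had a mean of at least 10 CPM there, among them WT1, EMX2 and PTGDS. PAX2, SALL1, EYA1 and PAX8 were at 75.6 CPM or more in all 9 of those libraries.

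Called genes at 10 CPM or more that did not overlap between the groups were ranked by fitted excess. Genes without a symbol, or with one starting with LOC, were left out of the ranking. The 12 with the largest excess in the heart were NPPB, MYL3, IRX4, POPDC2, NPPA, COX6A2, TNNT2, MYBPC3, MYL7, BPIFA2C, MYH7 and GATA4. NPPB, the gene of B-type natriuretic peptide, had 447, 789 and 1120.4 CPM in the heart libraries and 0 counts in all 9 labelled-gonad libraries, which against a floor of 3 counts over the group is at least 16.76 higher on the log2 scale (adjusted p = 3.28e-14, edgeR). NPPA, the gene of atrial natriuretic peptide, had 135, 282 and 538 CPM in the heart and at most 0.116 CPM in the labelled gonads, a log2 fold change of 13.37 (SE 0.51, adjusted p = 2.00e-15, edgeR). IRX4, a transcription factor of the ventricles, had 219, 489 and 766 CPM in the heart and at most 0.0924 CPM in the labelled gonads. BPIFA2C, a member of the BPI fold family, had 9.33, 19.8 and 41.6 CPM in the heart and 0 counts in the labelled gonads.

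The contractile apparatus rose in the heart as a whole. All 10 thick filament genes, all 9 thin filament genes and all 7 Z-disc and costamere genes tested were higher in the heart, and each of them was higher in every heart library than in every labelled-gonad library, against 11.2% of all genes. Their median log2 fold changes were 11.21, 9.69 and 6.83. MYH7, the slow myosin heavy chain of the ventricle, had 9585, 12113 and 15697 CPM in the heart and 1.63, 2.11 and 3.70 CPM in the labelled gonads, a log2 fold change of 12.45 (SE 0.24, adjusted p = 5.13e-20, edgeR). MYH6, the atrial heavy chain, had 1723 to 4119 CPM against 1.07 to 2.45 CPM; the 2 heavy chains are near-identical neighbours in the genome, so reads could be split between them. ACTC1, cardiac actin, had 10473, 14917 and 17108 CPM in the heart and 11.8, 16.9 and 24.2 CPM in the labelled gonads, a log2 fold change of 9.69 (SE 0.21, adjusted p = 1.82e-19, edgeR). TTN, the giant spring of the sarcomere, stood at 298 ± 32.3 CPM in the heart and 11.99 ± 1.24 CPM in the labelled gonads (SD, n = 9 each), the smallest of the thick filament differences at 4.63 on the log2 scale. TPM1, tropomyosin, was the thin filament member with the smallest difference (3.22), at 443 to 587 CPM in the labelled gonads.

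Excitation and calcium handling were less uniform. Of 13 genes tested, 10 were higher in the heart, 0 were higher in the labelled gonads and 3 passed in neither direction, with a median log2 fold change of 4.22. RYR2, the calcium release channel of the cardiac sarcoplasmic reticulum, had 989, 1397 and 1718 CPM in the heart and 12.7, 14.8 and 16.6 CPM in the labelled gonads, a log2 fold change of 6.53 (SE 0.15, adjusted p = 3.57e-19, edgeR). CASQ2, the calcium store protein, stood at 438 to 509 CPM against 0 to 1.60 CPM, and HCN4, the pacemaker channel, at 42.8 to 85.5 CPM against 2.29 to 5.15 CPM. ATP2A2, the pump that returns calcium to the store and which most cells use, differed less, with 85.3, 207 and 409 CPM in the heart and 56.9, 85.9 and 107 CPM in the labelled gonads, a log2 fold change of 1.23 (SE 0.22, adjusted p = 7.33e-05, edgeR), and the groups overlapped. The gap junction genes parted: GJA5 was higher in the heart (4.76, adjusted p = 4.27e-20, edgeR), while GJA1 had 50.9, 90.7 and 187 CPM in the heart and 56.1, 94.8 and 147 CPM in the labelled gonads (0.10, adjusted p = 0.707, edgeR).

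Of 11 cardiac transcription factors, 9 were higher in the heart, TBX3 was higher in the labelled gonads and ISL1 passed in neither direction. GATA4, which acts in both heart and gonad development, had 225, 336 and 419 CPM in the heart and 0, 0.0604 and 0.139 CPM in the labelled gonads, a log2 fold change of 12.37 (SE 0.35, adjusted p = 1.31e-17, edgeR). NKX2-5, an early determinant of heart muscle, had 59.3, 99.4 and 135 CPM in the heart and was at 0 in all but 1 labelled-gonad library, where it had 0.169 CPM. GATA6 was present in both, at 327 to 482 CPM in the heart and 26.4 to 40.5 CPM in the labelled gonads (3.47, adjusted p = 9.75e-17, edgeR). TBX3, a repressor of the working muscle program that is also used in other organs, had 4.35, 11.8 and 44.1 CPM in the heart and 42.7, 48.5 and 71.9 CPM in the labelled gonads, a log2 fold change of -1.73 (SE 0.34, adjusted p = 1.65e-04, edgeR). ISL1, of the second heart field, reached no more than 1.55 CPM in the heart and 2.07 CPM in the labelled gonads. All 4 natriuretic and secreted cardiac genes were higher in the heart; CORIN, the protease that activates natriuretic peptides, had 183 to 277 CPM against 0.123 to 1.76 CPM, and BMP10, of the early chamber wall, was low in the heart too, at 0 to 1.71 CPM.

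Energy metabolism differed in steps. All 13 protein genes of the mitochondrial genome were higher in the heart, with log2 fold changes between 3.37 (ATP6) and 5.22 (ND6) and a median of 4.01. COX1, a catalytic subunit of cytochrome c oxidase, had 82279.8, 235519 and 453999 CPM in the heart and 4980.3, 6107 and 11786 CPM in the labelled gonads, a log2 fold change of 5.04 (SE 0.36, adjusted p = 1.06e-10, edgeR). The heart libraries ranged over 5.52-fold in COX1, and the highest library was fetus 2 and the lowest fetus 10. Of 13 nuclear genes of the citric acid cycle, 11 were higher in the heart and 0 in the labelled gonads, with a median of 1.5025; an example is CS, citrate synthase (352 ± 66.9 against 56.6 ± 8.59 CPM, SD, n = 9 each). Of 12 genes of fatty acid uptake and oxidation, 10 were higher in the heart and 0 in the labelled gonads, with a smaller median of 0.86. CD36, the fatty acid translocase, had 20.3 to 63.4 CPM against 3.88 to 7.87 CPM. Scaled by library totals alone, the heart counts fell to 8 of 13 for the citric acid cycle and 4 of 12 for fatty acids, with 1 and 2 genes then higher in the labelled gonads.

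Many muscle genes have a relative that other cells use, and 23 pairs of related genes were compared. They include the transcription factor pairs TBX5 with TBX2 and GATA4 with GATA3, and GATA3 is also on the ureteric bud list. MYL3, MYL7, MYH7, COX6A2 and GATA4 are among the 12 genes ranked highest for heart excess above. The counts of pairs thus depend in part on which pairs were chosen. The muscle or cardiac member was higher in the heart in 22 pairs, and the other member in 15. For the other member, 4 were higher in the labelled gonads and 4 passed in neither direction. The median log2 fold change was 5.22 for the muscle members and 0.79 for the others. The cytochrome c oxidase subunit COX6A2 had 144, 294 and 350.2 CPM in the heart and at most 0.122 CPM in the labelled gonads, a log2 fold change of 12.87 (SE 0.42, adjusted p = 1.19e-16, edgeR), whereas its ubiquitous relative COX6A1 differed by 1.33. The muscle creatine kinase CKM differed by 6.51, and the brain form CKB by -0.23 (41.5 against 48.6 CPM, adjusted p = 0.325, edgeR; -1.14 and passing with library totals). The larger value fell on the other member in 2 pairs. In lactate dehydrogenase LDHB (1.28) was taken as the muscle or cardiac member, and LDHA stood at 2.88. In hexokinase HK1 stood at 1.49 and HK2 at 0.39 (adjusted p = 0.0942, edgeR). HK2 passed as higher in the heart with median-of-ratios size factors (0.44), with DESeq2 (0.44) and in ET_D9 fetuses alone (0.77). The glucose transporters went opposite ways, with the insulin-regulated SLC2A4 higher in the heart (2.22) and SLC2A1 higher in the labelled gonads (-1.03).

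**Figure D3:**
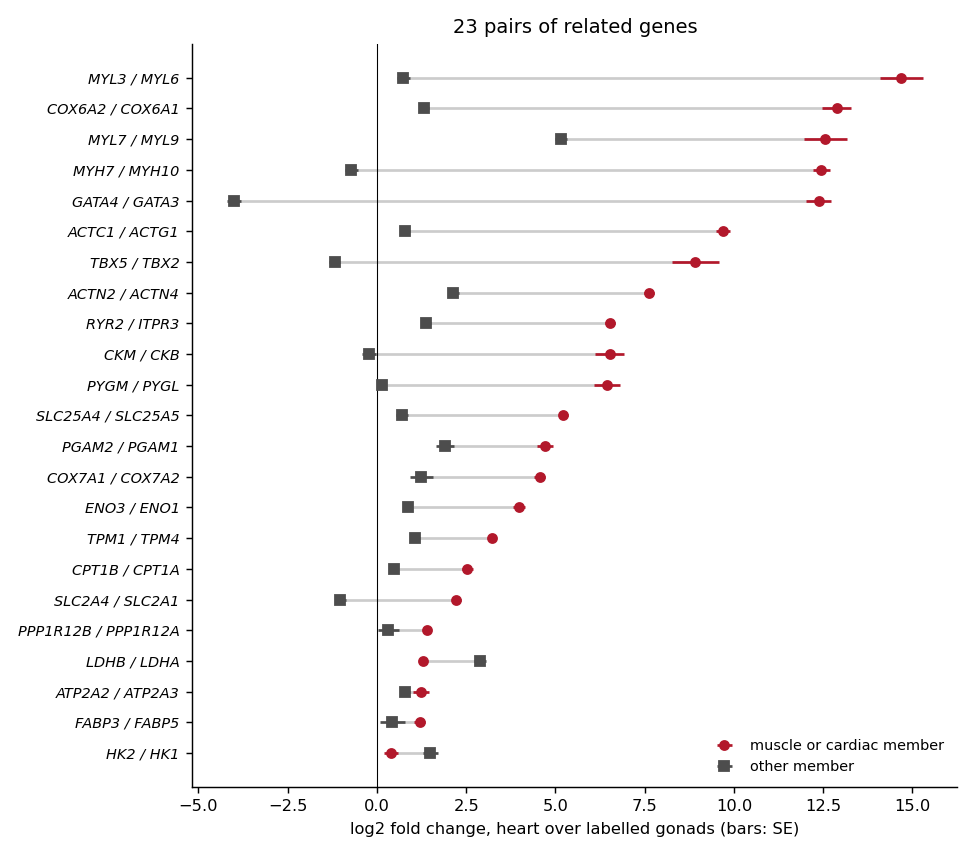
Log2 fold change of heart over labelled gonads (horizontal axis, bars are SE) for the muscle or cardiac member (red circles) and the other member (grey squares) of 23 pairs of related genes. The muscle member lies further to the right in 21 pairs, by the widest margin for GATA4 and GATA3, which fall on opposite sides of 0.

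By counts taken, which also reflect transcript length, the 10 leading protein-coding genes in the heart were 9 genes of the mitochondrial genome and ACTC1. In the labelled gonads they were 4 mitochondrial genes, the elongation factor EEF1A1, 3 ribosomal protein genes, the chaperone HSP90AB1 and PEG10, an imprinted gene derived from a retrotransposon. PEG10 had 342, 424 and 722 CPM in the heart and 1608, 2655 and 3782 CPM in the labelled gonads, a log2 fold change of -2.51 (SE 0.17, adjusted p = 3.67e-11, edgeR), and no heart library reached a labelled-gonad library. Several of these genes have processed copies in the genome that could share reads.

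Most testis genes were low in the second group. Of 28 genes tested from the lists for Sertoli cells, Leydig cells, germ cells and the early gonad, 9 were higher in the heart (against 25.5% of all genes), 8 were higher in the labelled gonads (against 29.6%) and 11 passed in neither direction, which is near the shares over all genes. Of the 28, 18 had a mean under 1 CPM in the labelled gonads, and the matching share over all genes was not computed. At 10 CPM or more there were 4 of the 28, beside 9898 of all 24562 genes tested. AMH, the hormone of Sertoli cells, had 2.67, 4.34 and 6.72 CPM in the heart and 1.12, 1.88 and 2.59 CPM in the labelled gonads, a log2 fold change of 1.29 (SE 0.20, adjusted p = 1.15e-05, edgeR), and every heart library lay above every labelled-gonad library. SOX9, the switch to Sertoli cells, had 1.46, 2.76 and 7.48 CPM in the heart and 0.423, 3.39 and 6.97 CPM in the labelled gonads (-0.09, adjusted p = 0.863, edgeR). DMRT1, a transcription factor of Sertoli and germ cells, reached no more than 0.316 CPM in the labelled gonads. Of 7 Sertoli genes, 3 were higher in the heart and 1, SOX8, in the labelled gonads, at 2.14 to 3.78 CPM against 5.06 to 9.71 CPM. PTGDS, on the Sertoli list, was not low in the labelled gonads. It had 23.3, 31.2 and 54.9 CPM there and 32.2, 69.4 and 115 CPM in the heart.

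Steroid-producing and germ cell genes were read in the same way. STAR, which carries cholesterol into mitochondria, had 9.39, 16.01 and 20.7 CPM in the heart and 6.15, 7.11 and 13.8 CPM in the labelled gonads, a log2 fold change of 1.04 (SE 0.18, adjusted p = 2.76e-05, edgeR), which was -0.014 with library totals. CYP17A1, an enzyme of androgen synthesis, was at 0 in 5 of the 9 labelled-gonad libraries and at 0.392 CPM in the highest, and INSL3, a Leydig cell hormone, reached 0.185 CPM. Of 6 Leydig and steroidogenic genes, 3 were higher in the heart and 1, HSD17B3, in the labelled gonads, at a mean of 0.576 CPM. Of 8 germ cell genes, 2 were higher in the heart (1 with fetus as a replicate block) and 1, DDX4, in the labelled gonads, where it reached 0.294 CPM, and 5 passed in neither direction, no larger shares than the 25.5% and 29.6% of all genes. NR5A1, which both the gonad and the adrenal cortex need, had 0.334 to 1.26 CPM in the labelled gonads and 0 to 0.63 CPM in the heart (-1.52, adjusted p = 0.0216, edgeR; adjusted p = 0.0728 with fetus as a replicate block). The early gonad list had 5 of 7 genes higher in the labelled gonads (3 with fetus as a replicate block), 3 of the 5 without overlap with the heart: WT1, EMX2 and CBX2. EMX2, a homeobox gene of the whole urogenital system, had 32.9, 35.5 and 43.4 CPM in the labelled gonads and at most 0.679 CPM in the heart. GATA4, also of the early gonad list, was higher in the heart and reached at most 0.139 CPM in the labelled gonads. Scaled by library totals alone, 0 of the Sertoli, Leydig and germ cell genes were higher in the heart and 2 of each list were higher in the labelled gonads. Of 7 Y-linked genes listed, SRY among them, 0 were found by symbol in the count table, so they could not be tested.

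Many genes of the developing kidney were high in the same libraries. The kidney lists as counted here include the epithelial junction and keratin list, which is not specific to the kidney. Of its 10 genes, 7 were higher in the labelled gonads and 3 in the heart. Of 67 genes tested from the kidney lists, 47 were higher in the labelled gonads (against 29.6% of all genes), 14 were higher in the heart (near the 25.5% of all genes) and 6 passed in neither direction, with a median log2 fold change of -2.87 (-2.81 with genes at 0 counts in a group set at their bound). In the labelled gonads, 41 of the 67 had a mean of at least 10 CPM and 7 had a mean under 1 CPM. For 37 of the 67 every labelled-gonad library lay above every heart library, against 12.7% of all genes. For 30 every labelled-gonad library also lay above every liver library. The liver levels came from a separate scaling that included liver, and the matching share over all genes was not computed. Testis genes were thus mostly low and many kidney genes high, although 5 of 7 early gonad genes were higher in the labelled gonads than in the heart. These levels do not bear out a testis, which the study took the libraries to be. The lists were chosen with earlier results of these data known. WT1, a marker of this comparison, is counted on both the nephron progenitor and the early gonad list. The study places differentiation of the male bovine gonad close to the day of collection. The part of stage in the low Sertoli and Leydig genes was not tested. The libraries are called by their label only, and no tissue name was assigned in its place.

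Nephron progenitor genes were 10 of 12 higher in the labelled gonads, with a median of -3.84. PAX2, a regulator of nephric duct and progenitors, had 116, 122 and 158 CPM in the labelled gonads and 3 counts in all heart libraries together, 8271 times as high (95% counting interval 2829.9 to 40107, adjusted p = 2.67e-19, edgeR). SIX2, which keeps progenitors undifferentiated, had 32.6, 37.1 and 70.0 CPM in the labelled gonads and 0, 0.0923 and 5.20 CPM in the heart, a log2 fold change of -5.50 (SE 0.70, adjusted p = 6.56e-07, edgeR). EYA1 and SALL1, partners in the same network, had 96.4 to 196 and 89.1 to 152 CPM in the labelled gonads against 3.33 to 9.09 and 3.74 to 12.97 CPM in the heart. GDNF, the signal that draws out the ureteric bud, had 17.6 to 25.0 CPM against 0.879 to 1.997 CPM (-3.83, adjusted p = 1.29e-15, edgeR). The exceptions were CITED1 and OSR1, which were higher in the heart, OSR1 at 10.7 to 51.6 against 10.6 to 24.2 CPM (adjusted p = 0.0479, edgeR, and 0.0727 with fetus as a replicate block; the excess failed the threshold in 13 of 18 fits that left out 1 library, with liver in the fit, with maternal group as covariate and in each transfer group alone, and turned to -0.48 with library totals); CITED1, found in the least committed nephron progenitors, had 1.18 to 2.47 CPM in the labelled gonads.

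Of 9 genes of the ureteric bud and nephric duct, 6 were higher in the labelled gonads, and WNT11 was higher in the heart (0.86, adjusted p = 2.75e-06, edgeR), though not with library totals (-0.12). RET, the receptor for GDNF, had 33.1, 39.8 and 47.7 CPM in the labelled gonads and was at 0 in 6 of the 9 heart libraries, a log2 fold change of -6.30 (SE 0.67, adjusted p = 5.34e-08, edgeR). CALB1, a calcium-binding protein of the distal nephron and duct, had 23.4 to 60.2 CPM against 0 to 2.17 CPM. Of 9 genes of the renal vesicle and early nephron, 7 were higher in the labelled gonads. LHX1 had 10.3, 15.9 and 19.4 CPM there and 0 counts in the heart, which is at least 9.97 higher on the log2 scale (adjusted p = 7.79e-13, edgeR). PAX8 and WNT4, which drive the change from mesenchyme to epithelium, had 75.6 to 115 and 21.8 to 37.3 CPM in the labelled gonads and 3.13 to 6.94 and 1.28 to 2.89 CPM in the heart. JAG1 and IRX3 were higher in the heart; JAG1, a Notch ligand that the heart also uses, had 144 to 296 CPM there.

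Some genes of differentiated nephrons were also present, but not whole lists alike. The podocyte list summed to 132 to 197 CPM in the labelled gonads and 396 to 523 CPM in the heart. Proximal tubule sums overlapped, at 35.4 to 52.9 and 27.5 to 75.1 CPM. The loop and distal tubule list summed to 15.2 to 78.2 CPM in the labelled gonads and 0.887 to 2.80 CPM in the heart. NPHS1, nephrin of the podocyte slit diaphragm, had 3.49, 11.3 and 16.2 CPM in the labelled gonads and at most 0.16 CPM in the heart, a log2 fold change of -7.02 (SE 0.48, adjusted p = 3.67e-11, edgeR). Of 9 podocyte genes 5 were higher in the labelled gonads and 4 in the heart, the latter being PODXL, SYNPO, PLA2R1 and CLIC5. SLC12A1, the salt transporter of the loop of Henle, had 13.2, 36.9 and 72.2 CPM in the labelled gonads and at most 0.24 CPM in the heart, a log2 fold change of -9.03 (SE 0.48, adjusted p = 5.72e-13, edgeR). In the loop and distal tubule list 3 of 5 genes were higher in the labelled gonads, and UMOD, the marker of the mature loop, was at 0 in 8 of the 9 libraries. Of 8 proximal tubule genes 5 were higher in the labelled gonads with TMM, 4 with fetus as a replicate block, and 3 with median-of-ratios size factors or without mitochondrial genes. The organic anion transporter SLC22A6 reached no more than 0.121 CPM and HNF4A no more than 1.76 CPM. In the renal stroma and renin cell list, 4 of 5 were higher in the labelled gonads; FOXD1, the stromal progenitor marker, had 52.0, 67.4 and 97.6 CPM there and 0, 0.378 and 1.86 CPM in the heart, a log2 fold change of -7.07 (SE 0.42, adjusted p = 3.78e-12, edgeR). The epithelial list split by class: EPCAM (-4.94), GRHL2 (-4.37) and claudins were among the 7 of 10 higher in the labelled gonads, whereas the keratins KRT8, KRT18 and KRT19 were higher in the heart.

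**Figure D4:**
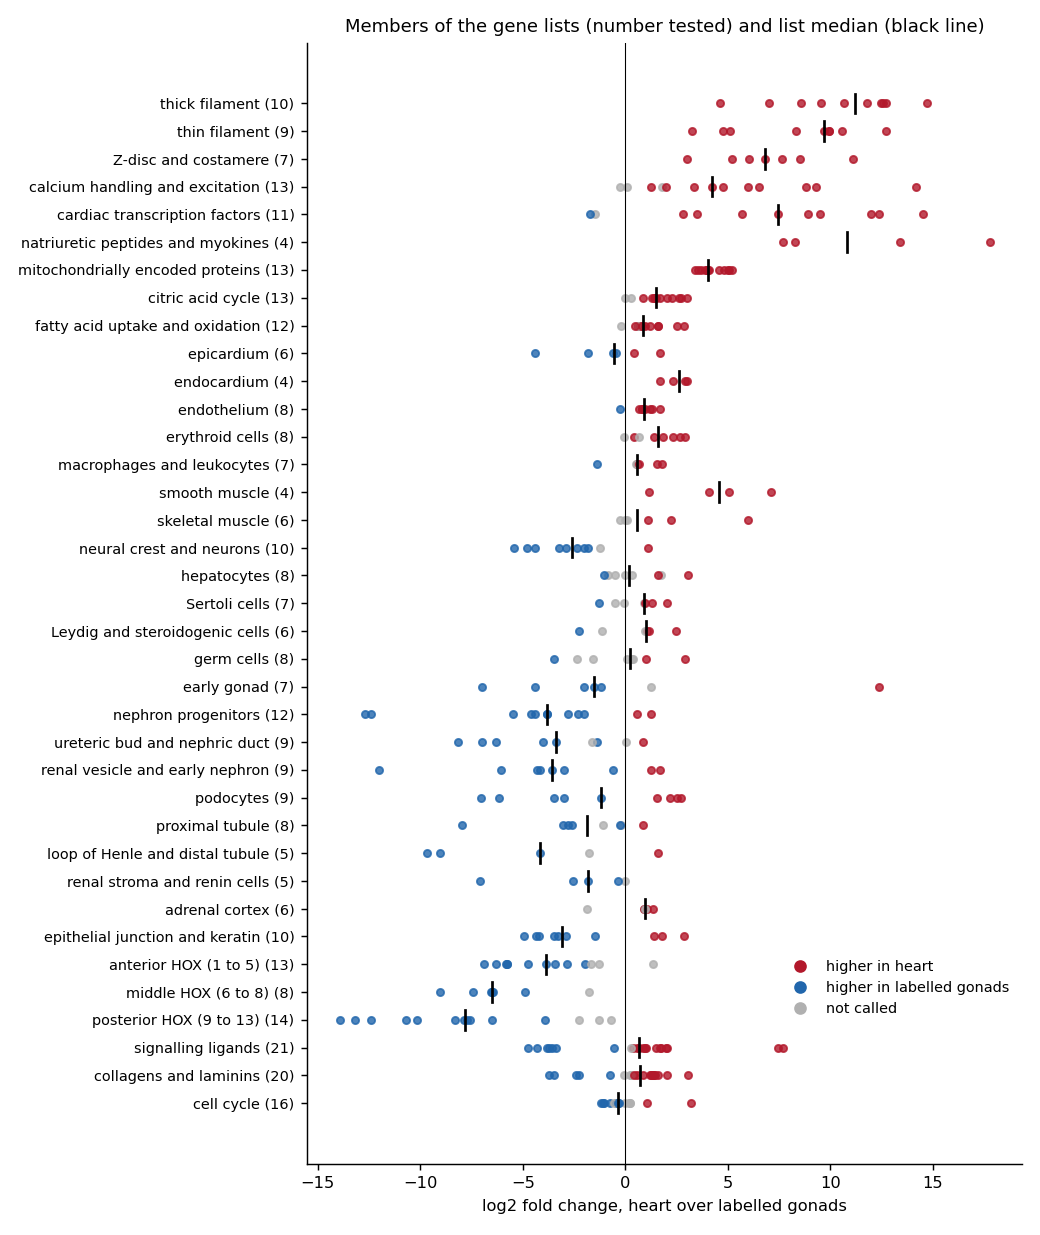
Each point is a gene of 1 of 37 lists (rows, number tested in brackets) at its log2 fold change of heart over labelled gonads, red when higher in the heart, blue when higher in the labelled gonads and grey when neither; black lines are list medians. By median, the thick filament list lies furthest to the right (11.21) and the posterior HOX list furthest to the left (-7.81), while the Sertoli, Leydig and germ cell lists straddle 0.

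HOX genes were the other group that set the labelled gonads apart. Of 35 HOX genes tested, 28 were higher in the labelled gonads, against 29.6% of all genes, and 0 in the heart, against 25.5%. Their summed level was 2189 to 3163 CPM in the labelled gonads and 6.32 to 143 CPM in the heart, where fetus 3 was highest. The number called was 10 of 13 for paralogues 1 to 5, 7 of 8 for 6 to 8 and 11 of 14 for 9 to 13, and the median log2 fold change fell from -3.86 through -6.51 to -7.81 (-7.73 with genes at 0 counts in the heart set at their bound). HOXC10 had 46.6, 52.2 and 83.3 CPM in the labelled gonads and 0 counts in all heart libraries, which is at least 11.82 higher on the log2 scale (adjusted p = 1.32e-13, edgeR). HOXD10 had 109, 124 and 172 CPM there and 2 counts in the heart, 12334 times as high (95% counting interval 3414 to 101848, adjusted p = 2.02e-19, edgeR). HOXA11 and HOXD11, paralogues that the kidney needs, had 31.7 to 59.3 and 14.5 to 28.4 CPM in the labelled gonads. The level ended with paralogue 11: HOXD12 and the 3 paralogues numbered 13 summed to at most 0.122 and 0.422 CPM in any labelled-gonad library. HOXB6 had 534, 682 and 808 CPM in the labelled gonads and 0, 0.0399 and 5.59 CPM in the heart, a log2 fold change of -9.06 (SE 0.85, adjusted p = 6.78e-09, edgeR).

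**Figure D5:**
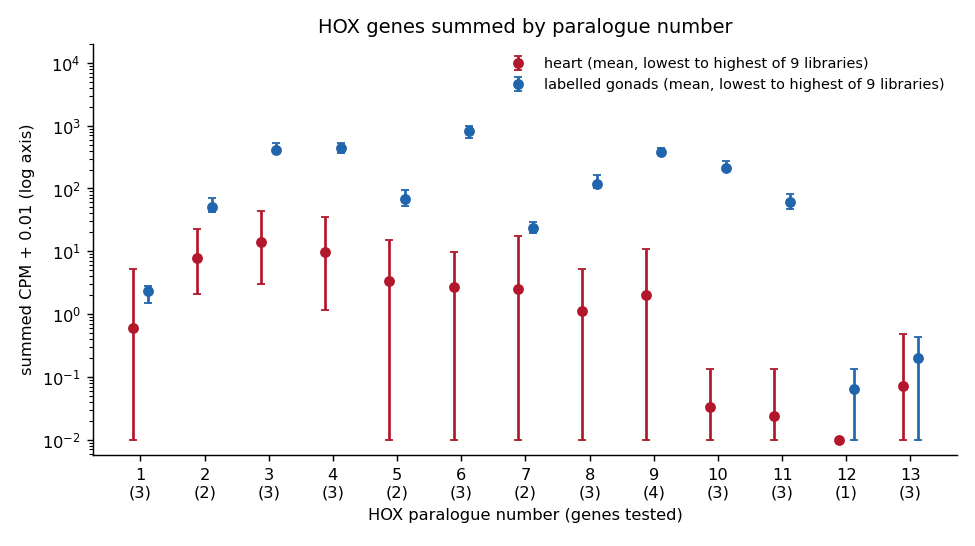
Summed level (CPM + 0.01, log axis) of the HOX genes of each paralogue number (horizontal axis, number of genes tested in brackets) in the heart (red) and the labelled gonads (blue); points are means and bars run from the lowest to the highest of 9 libraries. The groups do not overlap for numbers 2 to 11, the heart is near the bottom of the axis for 10 and 11, and both groups are low for 12 and 13.

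The ranking for the labelled gonads likewise left out genes without a symbol or with one starting with LOC. Its first 12 genes were HOXC10, HOXD10, HOXD11, HOXA11, HOXA10, HOXB6, PAX2 and LHX1, beside UNCX, FGF19, GRP and DUSP9. UNCX, a homeobox gene of somites and kidney mesenchyme, had 24.8, 34.3 and 53.7 CPM in the labelled gonads and 0 counts in the heart. FGF19, a secreted growth factor, had 11.1 to 22.9 CPM there and 0 counts in the heart, and GRP, gastrin-releasing peptide, 46.4 to 58.6 CPM and at most 0.248 CPM. DUSP9, a phosphatase of MAP kinases, had 33.6 to 71.0 CPM in the labelled gonads and at most 0.186 CPM in the heart.

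Markers of other cell types were read in both groups. The endocardium list (4 of 4) and the smooth muscle list (4 of 4) were higher in the heart, with CNN1, calponin, at 313 to 658 CPM against 2.43 to 4.88 CPM. Endothelial genes were 7 of 8 higher in the heart, but by small amounts, with a median of 0.90, and 1 of 8 was when libraries were scaled by their totals. The epicardium list split, 2 higher in the heart and 4 in the labelled gonads (0 and 5 with library totals), and the latter include WT1, TCF21 and TBX18, which kidney mesenchyme also expresses. Red cell genes were 6 of 8 higher in the heart, led by KLF1 (2.90), and summed to 783 to 3037 CPM in the heart and 222 to 875 CPM in the labelled gonads; the part of blood in the organ differences was not tested. Leukocyte genes were 5 of 7 higher in the heart and 1, CD68, in the labelled gonads (1 and 2 with library totals), with summed levels of 16.5 to 27.3 and 19.1 to 24.6 CPM. Of 6 skeletal muscle genes 3 were higher in the heart, and the master gene MYOD1 was at most 1.08 CPM in the heart and 0.633 CPM in the labelled gonads.

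Nerve and neural crest genes went the other way, 8 of 10 being higher in the labelled gonads and 1, CHGA, in the heart. The levels were low: DBH, the enzyme that makes noradrenaline, had 1.63 to 5.10 CPM in the labelled gonads and at most 0.127 CPM in the heart (-5.43, adjusted p = 4.71e-09, edgeR). Of 6 adrenal cortex genes 3 were higher in the heart and 0 in the labelled gonads, and with fetus as a replicate block 1 was. Of 8 hepatocyte genes, 2 were higher in the heart, 1 in the labelled gonads and 5 passed in neither direction, no larger shares than the 25.5% and 29.6% of all genes, with AFP at no more than 2.67 CPM in the heart and 4.52 CPM in the labelled gonads, although APOA1 was higher in the heart (27.1 to 54.4 against 3.05 to 6.66 CPM).

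Signals between cells differed gene by gene. Of 21 secreted signals tested, 13 were higher in the heart (25.5% of all genes) and 7 in the labelled gonads, the latter near the 29.6% of all genes. IGF2, the main fetal growth factor, had 3428, 5956 and 6578 CPM in the heart and 1453, 1542 and 2724 CPM in the labelled gonads, a log2 fold change of 1.66 (SE 0.16, adjusted p = 9.20e-09, edgeR). FGF10, a mesenchymal signal for budding epithelia, had 1.26, 2.03 and 4.35 CPM in the heart and 45.9, 63.0 and 84.9 CPM in the labelled gonads, a log2 fold change of -4.73 (SE 0.24, adjusted p = 1.92e-13, edgeR). BMP7 was higher in the heart (93.3 to 106 against 19.6 to 27.5 CPM) and BMP4 in the labelled gonads (41.4 to 73.9 against 69.6 to 117 CPM, -0.58, adjusted p = 2.42e-04, edgeR). Scaled by library totals, the split of these signals became 6 and 9.

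Of 20 collagen and laminin genes, 12 were higher in the heart (25.5% of all genes) and 5 in the labelled gonads (29.6% of all genes), and 5 and 8 when libraries were scaled by their totals. COL2A1, the collagen of cartilage, had 30.0, 47.0 and 113 CPM in the heart and 573, 704 and 1049 CPM in the labelled gonads, a log2 fold change of -3.72 (SE 0.24, adjusted p = 1.97e-11, edgeR). LAMA1, a laminin of early epithelial basement membranes, was higher in the labelled gonads (-2.26), and LAMA2, the laminin around muscle fibres, higher in the heart (3.07). The basement membrane chains COL4A3 and COL4A4 were higher in the labelled gonads (-2.41 and -3.48), and COL4A1 and COL4A2 were higher in the heart (1.18 and 1.29).

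Cell cycle genes were 9 of 16 higher in the labelled gonads (29.6% of all genes) and 2 in the heart (25.5% of all genes), with a median of -0.36 beside -0.17 over all genes. MKI67, a marker of cycling cells, had 88.3 to 154 CPM in the heart and 129 to 245 CPM in the labelled gonads (-0.46, adjusted p = 0.00558, edgeR). It did not pass in ET_D7 fetuses alone (-0.24, adjusted p = 0.214, edgeR). CDKN1A, which halts the cycle, was higher in the heart, at 5.13 to 13.3 CPM against 0.434 to 1.26 CPM (3.19, adjusted p = 5.12e-11, edgeR). TOP2A had 29.0, 273 and 439 CPM in the labelled gonads, its lowest value being that of fetus 1.

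The organ difference itself was compared between the transfer groups. It differed for 35 of 24562 genes at an adjusted p-value under 0.05 (0.142%) and for 3956 at an unadjusted p-value under 0.05, by edgeR's quasi-likelihood test of the interaction. Leaving out the labelled-gonad library of fetus 1 raised the count to 252 genes, and with fetus as a replicate block it was 1 gene. The gene with the smallest p, CNTNAP5, a neuronal adhesion protein, was named after its values were seen; its means were 20.2 CPM in ET_D7 and 10.7 CPM in ET_D9 hearts, and 3.71 and 7.22 CPM in the labelled gonads (adjusted p = 0.00792, edgeR). ET_D9 fetuses were all heavier than ET_D7 fetuses, so transfer group and fetal weight cannot be told apart here.

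Without the labelled-gonad library of fetus 1, 6327 genes were higher in the heart and 7318 in the labelled gonads. Of the 505 genes that were far lower in it, 251 were higher in the labelled gonads and 16 in the heart with it, and 359 and 22 without it. Among the genes named above, it was far lower for HOXB3, a head-ward HOX gene at 1.63, 18.9 and 20.9 CPM in the labelled gonads, for ESRP1, an epithelial splicing factor at 2.48, 21.2 and 27.6 CPM, and for TOP2A and TBX18. In the heart, the library of fetus 3 held the most of the 70 genes at 10 CPM or more that were over 5 log2 units higher in the labelled gonads and did not overlap: they summed to 117 CPM in it and to 19.4 to 59.7 CPM in the other heart libraries, against 4058 to 5079 CPM in the labelled gonads. That library was also the one with the highest RET and HOX levels in the heart and the lowest NPPB. Without it, 6153 genes were higher in the heart and 7373 in the labelled gonads.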

How the data were processed

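Polyadenylated RNA of dissected fetal organs was sequenced from stranded libraries. Per the study's methods and the submitters' processing notes, the authors checked reads with FastQC 0.11.9, trimmed them with Trimmomatic, aligned them to the bovine genome ARS-UCD1.3 with STAR 2.7.0b and counted reads per gene with featureCounts of Subread 2.0.3. Several samples were discarded by the authors at RNA quality control, before library preparation. The strand and multiple-mapping options are not given in the sources used here. The deposited values are raw counts per Entrez gene, with no normalization, and 31630 of 35092 genes were matched to a symbol by gene ID in a RefSeq table.

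Genes with at least 1 count in the 18 libraries were tested with edgeR 4.0.16 (R 4.3.3), using TMM scaling, the quasi-likelihood test and Benjamini-Hochberg adjustment, two-sided, at an adjusted p under 0.05; the scripts were tested on simulated data. Groups came from the sample labels. Levels are CPM of TMM-scaled library sizes. Where a group had 0 counts, a bound was computed against a floor of 3 counts over the group, and with 1 to 3 counts a ratio with its exact 95% counting interval was given; both cover counting error only. No list was tested as a set. A few list members and 1 isoform pair are not reported here. The members and gene lists were chosen with earlier results of these data known. The genes named are the 4 markers, the 12 ranked highest in each direction, members of the lists and isoform pairs, and the 10 leading genes of each group. Ranking was by fold change among called genes at 10 CPM or more without overlap and with a symbol not starting with LOC. Any other gene named is said to be chosen after its values were seen.

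Libraries of 1 fetus are paired because they come from the same animal. Over the 8 fetuses, the correlation across genes of the deviations from the group means was between -0.19 and 0.29, over genes that are not independent. Alternatives were size factors by median of ratios, library totals, leaving out mitochondrial genes, a filter on low counts (filterByExpr), DESeq2 1.42.0, a fit with liver, maternal group as covariate, each transfer group alone, fetus as a replicate block and leaving out each library.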

Additional observations from a re-analysis of the deposited data

Results flagged for a closer look

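In 26 of 223 sets of 9 libraries, taken for the genes named above, 1 library stood apart from the others by its gap to the nearest relative to the range, on the log2 scale; chance alone sets off about 1 in 20 sets, and genes are not independent. In 12 of them the library was that of fetus 1 of the labelled gonads: it was highest for BMP4 (116.8 CPM), CYP17A1 (0.392 CPM), FOXD1 (97.6 CPM), IGF2 (2724 CPM), STAR (13.8 CPM) and TCF21 (180.3 CPM), and lowest for ESRP1 (2.48 CPM), HOXB3 (1.63 CPM), LAMA1 (44.1 CPM), SOX9 (0.423 CPM), TBX18 (4.05 CPM) and TOP2A (29.0 CPM). The labelled-gonad library of fetus 7 was highest for CKB (89.4 CPM), COX1 (11786 CPM), DUSP9 (71.0 CPM), GATA3 (51.9 CPM), KRT18 (55.8 CPM) and MYH7 (3.70 CPM), and mitochondrial genes held more of its counts (7.23%) than of the others in its group. Fetus 9 was highest for EMX2 (43.4 CPM) and TPM1 (587 CPM) and fetus 4 for HSP90AB1 (2795 CPM) in the labelled gonads, where fetus 8 was the lowest, at 0, for CASQ2 and MYOD1. In the heart, fetus 3 was highest for CALB1 (2.17 CPM) and lowest for NPPB (447 CPM), and fetus 8 was lowest for CD68 (2.48 CPM).

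The organ difference differed between ET_D7 and ET_D9 for 35 genes by the interaction test of edgeR. For CNTNAP5 the log2 fold change of heart over labelled gonads was lower in ET_D9 by a difference of -1.88; with fetus as a replicate block it was the only gene to pass (adjusted p = 0.0401, edgeR).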

How the results depend on the processing

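The counts of genes higher in each organ, at any size and at 2-fold, stayed within 1.5 times of the reported counts in the alternatives run, except with library totals alone: 2334 genes were then higher in the heart and 13567 in the labelled gonads, 1639 and 10742 of them at least 2-fold. Leaving out each library gave 6075 to 6566 genes higher in the heart and 6893 to 7373 in the labelled gonads, and 3813 to 4144 and 4032 to 4517 at 2-fold. The number of genes whose organ difference differed between transfer groups moved most: 0 with library totals (3372 at an unadjusted p under 0.05, edgeR), 293 with the filter on low counts, 1 with fetus as a replicate block and 252 without the labelled-gonad library of fetus 1, an alternative chosen after seeing the data; the cause was not tested.

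For 128 named genes, 3595 of 3696 alternative values kept direction and side of the threshold, and 2033 of 2146 counts of list members stayed within 1.5 times. Library totals brought the calls of CKB (-1.14), EEF1A1 (-1.09), AFP (-1.72) and ISL1 (-2.32) and turned CYP17A1 to -0.074, DMRT1 to -0.19, GJA1 to -0.83, HK2 to -0.52, OSR1 to -0.48, STAR to -0.014 and WNT11 to -0.12. The replicate block turned DMRT1 (-0.012) and SOX9 (0.045), ended the calls of HOXD12, INSL3, NR5A1, OSR1 and SLC22A6 and changed no other call of a named gene; the same 16 libraries without it gave CKB 0.0066. Within ET_D7 fetuses AFP was 1.21, MYOD1 0.68 and SOX9 0.50, none of them passing. The calls of DDX4, HOXD12, MKI67, NR5A1, OSR1, SLC22A6 and TOP2A ended within ET_D7 fetuses. Those of HOXD12, HSD17B3, INSL3, OSR1, SLC22A6 and TCF21 ended within ET_D9 fetuses. Within ET_D9 fetuses DMRT1 was -0.37 and EEF1A1 0.18. There AFP (-1.76, adjusted p = 0.0138, edgeR) and MYOD1 (-4.05, adjusted p = 0.0279, edgeR) passed as higher in the labelled gonads, and HK2 (0.77) passed as higher in the heart. Leaving out 1 library gave SOX9 -0.34 to 0.10, and ended calls of OSR1 (13 of 18 fits), SLC22A6 (13 of 18) and INSL3 only among the named genes. In some of these fits HK2 passed as higher in the heart and ISL1 as higher in the labelled gonads. At this depth, genes under the floor of 3 counts over a group were not detectable.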
